A study of Mus musculus with 20 samples.

Results

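The laminin and integrin genes are a set of 37 among the 23284 genes of the deposited expression table. They were taken by symbol: 11 genes named Lama, Lamb or Lamc followed by a digit, and 18 alpha and 8 beta subunit genes named Itga or Itgb followed by the letter or number of an integrin subunit. Genes of integrin-binding proteins such as Itgb1bp1 and the integrin-like genes Itgb2l and Itgbl1 were left out. Laminins are secreted trimers of an α, a β and a γ chain that polymerise into the sheet of the basement membrane, the layer on which epithelium, smooth muscle, nerve and vessels rest. Integrins are membrane receptors made of 1 α and 1 β subunit; α3β1, α6β1, α6β4 and α7β1 bind laminins, and others bind collagens, fibronectin or ligands on other cells. In the prostate and the seminal vesicle, α6β4 anchors the basal surface of the epithelium through hemidesmosomes, to a laminin that contains the Lama3 and Lamb3 chains.

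The libraries came from tissue recombinants, in which mouse epithelium is joined to rat (Sprague Dawley) urogenital sinus mesenchyme (UGM), the embryonic tissue that induces prostate. Each of 5 groups had 4 libraries: mNKX3.1+UTY_sh, seminal vesicle epithelium (SVE) with both constructs; mNKX3.1, SVE with the construct of that name; PE, prostate epithelium; UTY_sh, SVE with the hairpin of that name; and SVE, whose genotype is given as wild-type NKX3.1. All groups shared the donor age of 2 months, a harvest 3 months after implantation, the rat mesenchyme and, per the treatment protocol, 3 months of doxycycline in the drinking water, which switches on a pTRIPZ vector. The mouse strain is given as C57Bl/6J in the protocol and as a hybrid of 129/SvImJ and C57Bl/6J in the strain label, and the protocol names a wild-type and a point-mutant NKX3.1, so the m of mNKX3.1 is not read here. Nothing in the labels says that the libraries of a group were separate animals, so the p-values refer to the scatter among libraries, part or all of which may be technical.

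Depth, read from the step between neighbouring values, was about 14900000 to 29800000 reads a library. All values below are the deposited log2 normalised expression values, unless a summed level or a level per kilobase is named. Summed levels and levels per kilobase are on the linear scale, from 2 to the power of the deposited value. Uty, by name the gene the hairpin is directed at, was at 8.98 to 9.52 in the libraries labelled UTY_sh and overlapped SVE (9.04 to 9.55). It was at 9.09 to 9.29 in mNKX3.1+UTY_sh and 10.07 to 10.31 in mNKX3.1, with no overlap, and at 10.13 to 10.45 in PE. Since the hairpin label went with a lower Uty in 1 of these comparisons and not in the other, directions drawn from the hairpin label are those of the libraries so labelled. Over 5190 well expressed genes, each of the 20 libraries was nearer to the mean of some pair of others than to any single library. These distances (median absolute log2 difference) were smallest for the 4 mNKX3.1 libraries, each to a pair of PE libraries (0.0386 to 0.0444), and for mNKX3.1+UTY_sh replicate 4, to the mean of SVE replicate 1 and UTY_sh replicate 2 (0.0402). The remaining libraries were at 0.0459 to 0.0738, among them UTY_sh replicate 3 at 0.052 from the mean of SVE replicates 1 and 2. In the reverse direction, PE libraries lay 0.058 to 0.0706 from the nearest pair of mNKX3.1 libraries. Whether these libraries are independent of those they resemble was not tested. Each limma test below, that of PE against SVE included, uses a spread estimated over all 20 libraries. Its p-values therefore also rest on the libraries named here. The mNKX3.1 values are therefore given beside those of PE and not as an independent repeat. The comparisons that use mNKX3.1+UTY_sh or UTY_sh are also given without mNKX3.1+UTY_sh replicate 4 or UTY_sh replicate 3. The mNKX3.1 libraries stay in the comparison of mNKX3.1+UTY_sh against mNKX3.1 and in the interaction test given last. Seminal vesicle and prostate identity followed the labels in PE and SVE, with all 6 seminal vesicle secretory markers lower and all 5 prostate secretory markers higher in PE. Reads of rat origin could not be told apart from mouse reads, and in bulk tissue fewer cells of a type and less RNA per cell cannot be told apart.

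Promoters of 4 members are shown because these genes differed together between PE and SVE: Lama5, which was higher in PE, and Itga2b, Itgax and Itgb7, which were lower. Each run of 300 bases spans 250 before to 50 after the start of the gene in RefSeq, build GRCm38.p6, read 5′ to 3′ on the strand of the gene. Lama5 is at chr2:180225810-180226109 on the minus strand, Itga2b at chr11:102469834-102470133 on the minus strand, Itgax at chr7:128129300-128129599 on the plus strand and Itgb7 at chr15:102231886-102232185 on the minus strand. Capitals mark matches, on either strand, to any of 6 short motifs: the GC box GGGCGG, the TATA box TATAAA, the forkhead motif TGTTTAC, the GATA motif AGATAA, the androgen receptor motif AGAACA and the ETS motif CCGGAA.
Lama5: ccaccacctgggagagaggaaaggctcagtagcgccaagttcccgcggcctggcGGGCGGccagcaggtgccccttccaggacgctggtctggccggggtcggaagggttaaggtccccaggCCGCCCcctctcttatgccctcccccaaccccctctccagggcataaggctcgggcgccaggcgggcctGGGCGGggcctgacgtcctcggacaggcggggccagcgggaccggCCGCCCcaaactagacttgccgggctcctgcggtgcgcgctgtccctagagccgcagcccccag
Itga2b: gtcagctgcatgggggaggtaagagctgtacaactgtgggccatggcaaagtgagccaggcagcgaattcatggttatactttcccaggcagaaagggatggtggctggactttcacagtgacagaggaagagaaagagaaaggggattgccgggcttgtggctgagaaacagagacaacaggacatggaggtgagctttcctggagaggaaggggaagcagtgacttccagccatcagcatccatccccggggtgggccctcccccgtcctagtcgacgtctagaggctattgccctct
Itgax: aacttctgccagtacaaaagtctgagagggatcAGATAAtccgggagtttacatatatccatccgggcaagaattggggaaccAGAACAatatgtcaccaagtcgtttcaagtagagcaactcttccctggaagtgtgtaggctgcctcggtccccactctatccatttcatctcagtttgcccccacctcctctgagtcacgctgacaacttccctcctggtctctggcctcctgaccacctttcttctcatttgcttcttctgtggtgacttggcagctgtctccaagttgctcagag
Itgb7: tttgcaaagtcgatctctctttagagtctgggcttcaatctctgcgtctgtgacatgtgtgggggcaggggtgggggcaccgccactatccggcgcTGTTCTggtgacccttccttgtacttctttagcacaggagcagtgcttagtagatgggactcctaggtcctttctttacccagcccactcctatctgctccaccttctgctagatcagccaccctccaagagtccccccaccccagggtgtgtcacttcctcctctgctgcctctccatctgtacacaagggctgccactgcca

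The Lama5 window held 4 GC boxes, and the Itga2b window held none of the 6 motifs. The Itgax window held a GATA motif and an androgen receptor motif, and the Itgb7 window an androgen receptor motif on the other strand. Among 26 windows of 23 matched members, 46.2% held the GC box, against 35.7% of all 32851 windows. The TATA box was in none of the 26, against 13.6% of all windows. The androgen receptor motif was in 23.1% of the members' windows, against 19.0% of all. No overlap between motifs was scored, and a match says only that these letters occur there.

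Of the 37 members, 36 passed the filter on low values (a log2 value of at least 5 in at least 4 libraries). The remaining member, Itgad, a leukocyte subunit, lay near the floor of the table in every library, from 1.41 to 3.43. Between PE and SVE, 21 of the 36 differed by limma with Benjamini-Hochberg adjustment over all 13456 genes tested (adjusted p below 0.05), which is 58.3%, against 62.1% of all genes. The members were unevenly split: 3 were higher and 18 lower in PE, while 31.8% of all genes were higher and 30.4% lower. The median difference of the members was -0.30 on the log2 scale, against 0.02 over all genes tested. Libraries did not overlap for 3 members that were higher in PE and 12 that were lower, while this held for 25.3% of all genes higher and 23.6% lower. The 3 that rose were Lama3, Itga6 and Lama5, and the 18 that fell were spread over 7 laminin chains, 8 alpha and 3 beta subunits.

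**Figure D1:**
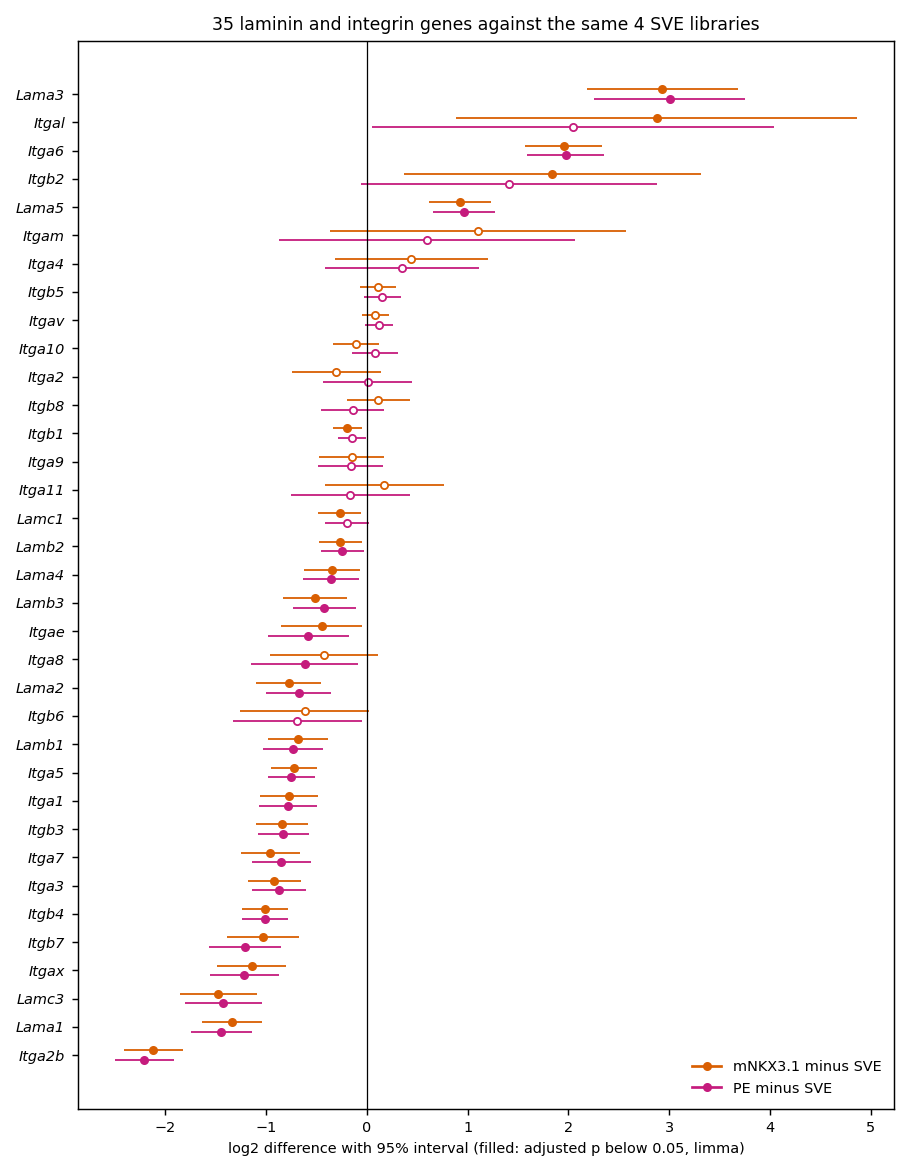
Log2 difference with its 95% interval for 35 of the 36 tested members, with mNKX3.1 minus SVE above PE minus SVE for each gene and filled points at an adjusted p below 0.05 (limma). Lama3, Itga6 and Lama5 stand to the right with filled points in both and Itga2b farthest to the left, and both sets of points use the same 4 SVE libraries. Itgal and Itgb2 also stand to the right, at 2.05 and 1.41 for PE (open points) and at 2.88 and 1.84 for mNKX3.1 (filled points).

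Lama3 encodes the α chain of the hemidesmosomal laminin. Its values were 11.88, 11.70, 11.34 and 11.72 in the PE libraries, against 9.92, 8.25, 8.13 and 8.32 in the SVE libraries. The groups did not overlap, and SVE replicate 1 was the highest of its group. The difference was 3.00 ± 0.357 (SE), an 8.02-fold higher level in PE (limma adjusted p = 9.17e-07), and 3.42 without SVE replicate 1. Lamb3, its β partner chain, had 7.84, 7.18, 7.88 and 7.57 in PE, against 7.78, 8.06, 8.29 and 8.02 in SVE, a fall of the group mean to 7.62, against 8.04 in SVE (difference -0.42 ± 0.151 SE, limma adjusted p = 0.0216). The Lamb3 libraries overlapped. The call was lost without SVE replicate 3, without PE replicate 2 and in a fit on PE and SVE alone, with limma adjusted p up to 0.0984. The log2 difference of Lama3 over Lamb3 within a library was 3.46 to 4.52 in PE, against -0.165 to 2.14 in SVE. This within-library difference was chosen after the values were seen and was not tested.

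Lama5, the α chain of the laminins found under most adult epithelia and in vessel walls, also rose. It had 11.54, 11.75, 11.56 and 11.51 in PE, against 11.001, 10.31, 10.90 and 10.29 in SVE, and the groups did not overlap. The difference was 0.96 ± 0.146 (SE), 1.95-fold (limma adjusted p = 1.61e-05). The other 3 α chains fell in PE. Lama1, the α chain of the laminin of early embryonic basement membranes, had 6.20, 5.53, 6.23 and 5.90 in PE, against 7.19, 7.51, 7.41 and 7.52 in SVE. All Lama1 values in PE lay below all in SVE (2.72-fold lower, limma adjusted p = 9.79e-08). Lama2, the main α chain of muscle basement membrane, averaged 9.07 ± 0.27 in PE and 9.74 ± 0.33 in SVE (SD, n = 4 each), with overlapping libraries (limma adjusted p = 0.000934). Lama4, a chain of vascular and mesenchymal laminins, averaged 9.09 in PE and 9.45 in SVE (limma adjusted p = 0.0246), and this call was lost without SVE replicate 3, PE replicate 2 or PE replicate 3.

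**Figure D2:**
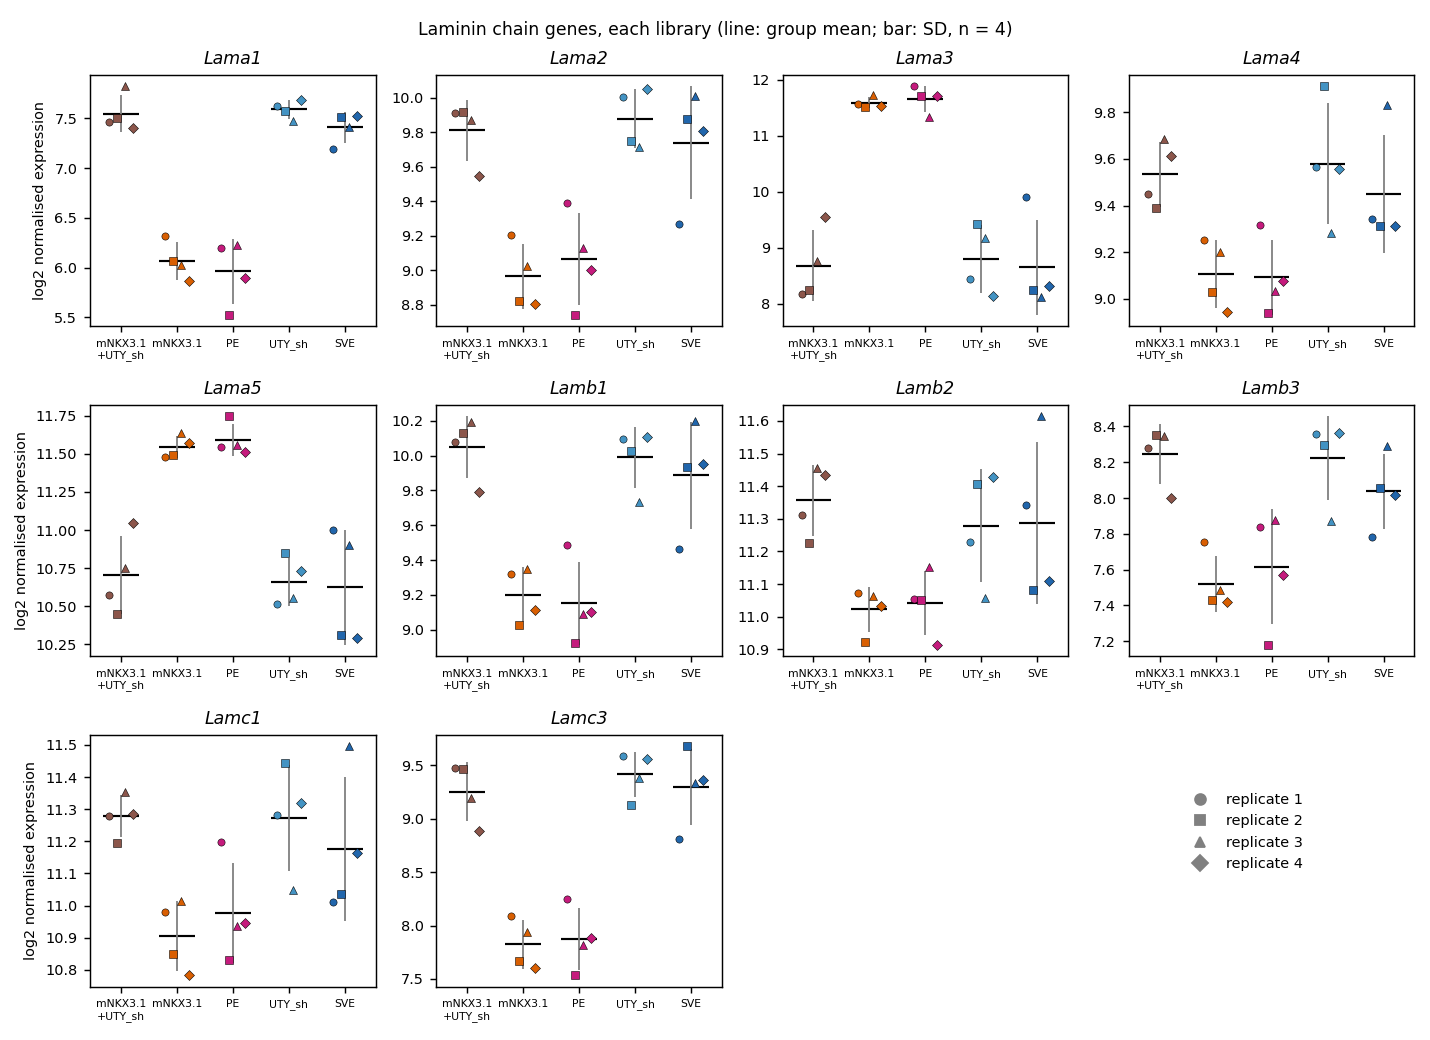
Log2 normalised expression of 10 of the 11 laminin chain genes in each of the 20 libraries, by group, with the group mean (line) and SD (bar, n = 4). Lama3 lies between 11.3 and 11.9 in PE and mNKX3.1 and between 8.13 and 9.92 in the other libraries, while Lama1 and Lamc3 show the opposite order.

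Per kilobase of merged exons the makeup of the laminin α chains changed rank. Lama3 was at 304 ± 45.5 per kilobase in PE and 43.5 ± 31.0 in SVE (SD, n = 4 each). By group mean it ranked 1 of the 5 chains in PE and 4 in SVE. In SVE replicate 1, however, Lama3 was at 89.9, above the highest SVE value of Lama4 (75.5) and of Lama2 (63.3). Lama5 was at 271 ± 20.6 in PE and 142 ± 36.8 in SVE, rank 2 in PE and 1 in SVE; in PE, Lama3 and Lama5 differed by less than their spread. Lama3 made up 45.8 ± 3.68% of the summed α chain level in PE and 13.3 ± 7.27% in SVE (SD, n = 4 each). An exact two-sided permutation test of that share gave p = 0.0286, the smallest that 4 against 4 libraries allow, and 0.0358 after Benjamini-Hochberg adjustment over the 5 chains. Shares of Lama1 (1.0% in PE and 5.79% in SVE), Lama2 (5.05% in PE and 17.5% in SVE) and Lama4 (6.89% in PE and 18.8% in SVE) were lower at the same exact p. The shares of a library are parts of 1 sum, so a higher Lama3 share lowers the others. These tests are therefore tied to each other and to the differences in level given above, and are not separate support. The Lama5 share, 41.2 ± 3.85% in PE and 44.6 ± 3.76% in SVE, overlapped between the groups (exact permutation p = 0.229), although its level rose.

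**Figure D3:**
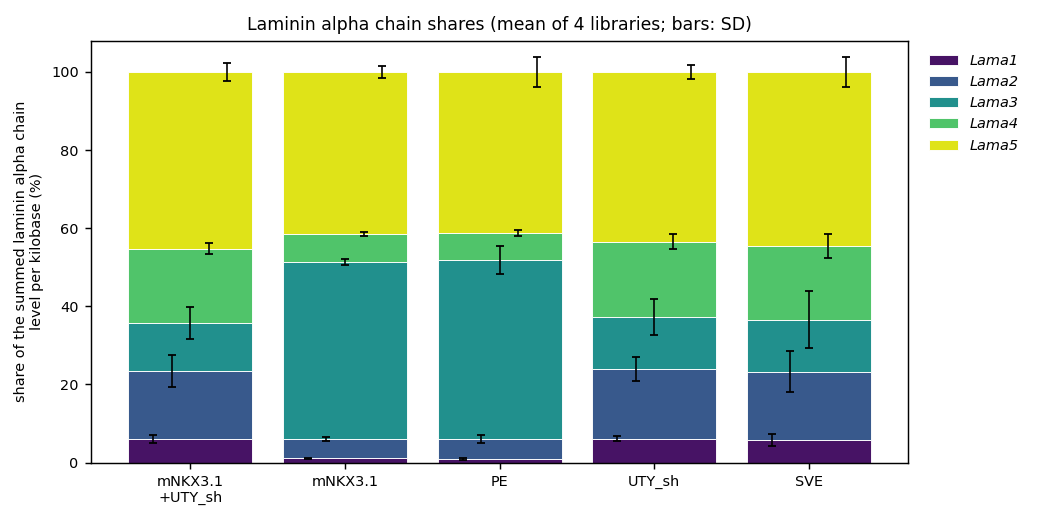
Share of each laminin α chain in the summed α chain level per kilobase, as the mean of 4 libraries in each group with the SD at the top of each segment. The Lama3 segment takes 45.3% in mNKX3.1 and 45.8% in PE, against 12.3% in mNKX3.1+UTY_sh, 13.3% in UTY_sh and 13.3% in SVE.

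Among the β and γ chains, Lamb1 and Lamc3 showed the clearest differences. Lamb2, first of the β chains per kilobase, averaged 11.04 in PE and 11.29 in SVE; its call (limma adjusted p = 0.0453) was lost under 14 of the alternatives run, with adjusted p from 0.0515 to 0.206. Lamb1, the partner of Lama1 and Lama5 in many tissues, fell to 9.15 ± 0.24 in PE, against 9.89 ± 0.31 in SVE (SD, n = 4 each; limma adjusted p = 0.000222). Lamc1, the γ chain shared by most laminins, averaged 10.98 in PE and 11.18 in SVE and did not pass the test (limma adjusted p = 0.0999; 95% interval of the difference -0.41 to 0.02). Lamc3, a γ chain known from skin, nerve and retina, had 8.25, 7.54, 7.82 and 7.88 in PE, against 8.81, 9.68, 9.34 and 9.36 in SVE. The Lamc3 groups did not overlap, with a level 2.69-fold lower in PE (limma adjusted p = 2.21e-06).

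The laminin-binding integrins divided in the same way as the laminin chains. Itga6, the α subunit of both α6β4 and α6β1, had 10.74, 10.08, 10.48 and 10.36 in PE, against 9.07, 8.26, 8.23 and 8.21 in SVE. Every PE library was above every SVE library, and SVE replicate 1 was again the highest of its group. The difference was 1.97 ± 0.183 (SE), 3.92-fold (limma adjusted p = 4.13e-08), and 2.18 without SVE replicate 1. Itgb4, whose product pairs with α6 alone, had 9.18, 9.10, 9.46 and 8.96 in PE, against 10.24, 9.92, 10.51 and 10.06 in SVE. These groups did not overlap either, but in the other direction (2.01-fold lower in PE, limma adjusted p = 2.75e-07). Itgb1, the β subunit common to most integrins and the most abundant member in log2 value, averaged 12.27 ± 0.14 in PE and 12.42 ± 0.09 in SVE (SD, n = 4 each). Its difference of -0.15 did not pass the test (limma adjusted p = 0.0658), with a 95% interval from -0.29 to -0.01, and it passed under 5 of the alternatives run. Within libraries, Itga6 was 0.987 to 1.56 log2 units above Itgb4 in PE and 1.18 to 2.28 below it in SVE; this difference of the 2 log2 values is not scaled for length and was not tested.

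Both other laminin-binding α subunits fell. Itga3, the partner of β1 in the main epithelial receptor for Lama3- and Lama5-containing laminins, had 10.92, 11.19, 10.56 and 10.96 in PE, against 11.58, 11.65, 12.01 and 11.87 in SVE. The libraries did not overlap (1.83-fold lower in PE, limma adjusted p = 9.88e-06). Itga7, the laminin receptor of muscle, averaged 7.61 ± 0.282 in PE and 8.46 ± 0.284 in SVE (SD, n = 4 each; 1.8-fold lower, limma adjusted p = 4.06e-05). Per kilobase, Itga3 remained first of the α subunits in both groups, at 340 ± 59.4 in PE and 619 ± 85.0 in SVE, while Itga6 was at 120 to 189 in PE and 32.8 to 59.4 in SVE. By share of the summed α subunit level, Itga6 was at 14.3 ± 6.04% in PE and 3.24 ± 1.31% in SVE, and Itga3 at 29.7 ± 4.93% in PE and 49.1 ± 2.78% in SVE (SD, n = 4 each); Itgam alone took 2.92 to 30.3% in PE, which lowers or raises the other shares.

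**Figure D4:**
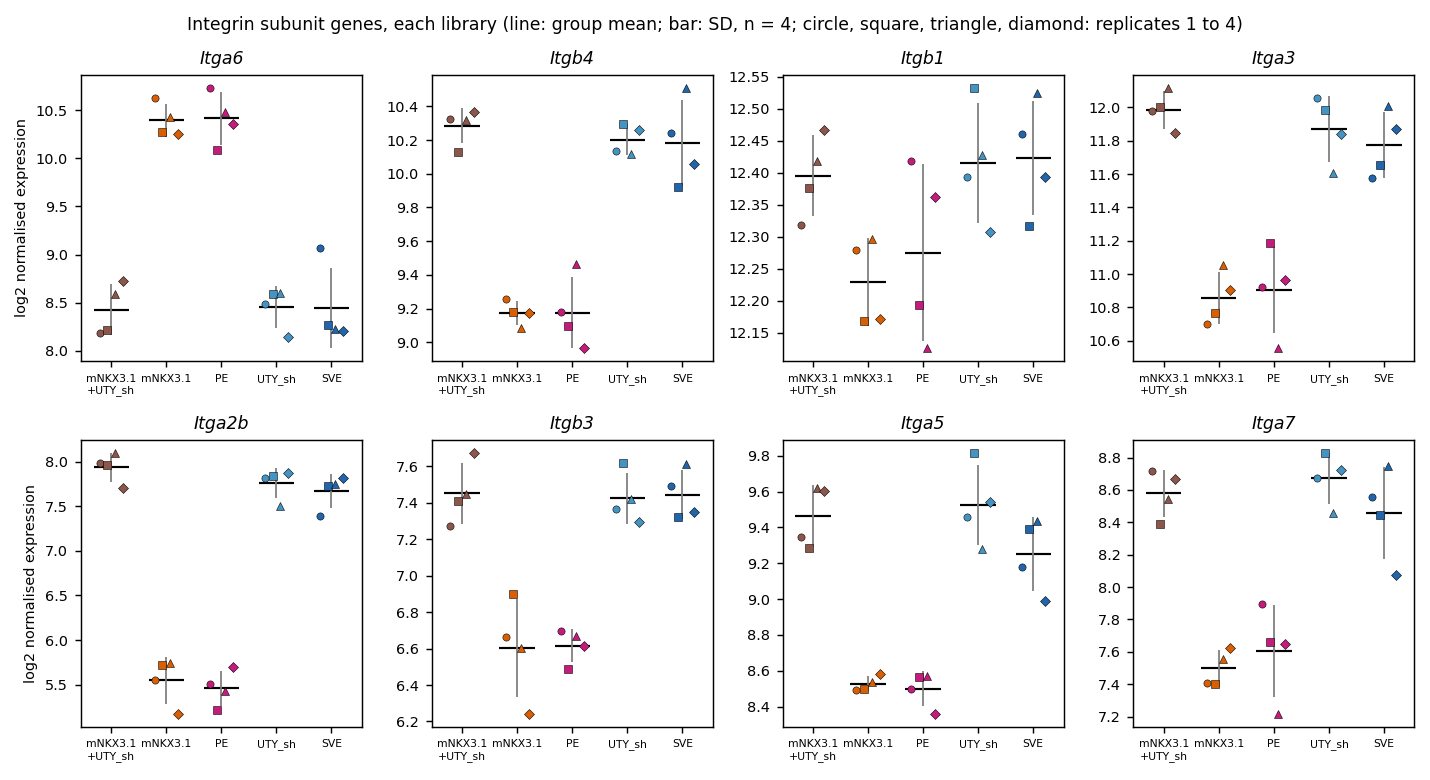
Log2 normalised expression of 8 integrin subunit genes in each library, by group, with the group mean (line) and SD (bar, n = 4). Itga6 is above 10 in PE and mNKX3.1 and at most 9.07 elsewhere, Itgb4 and Itga2b run the other way, and Itgb1 spans 12.1 to 12.5 over all libraries.

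The largest fall of any member was that of Itga2b, the αIIb subunit, known as the platelet receptor for fibrinogen together with β3. It had 5.50, 5.22, 5.43 and 5.70 in PE, against 7.39, 7.73, 7.75 and 7.81 in SVE. The gap between the groups was wider than either group's range, at 4.63-fold lower in PE (limma adjusted p = 2.44e-10). Itgb3 fell less, to 6.62 ± 0.09 in PE, against 7.45 ± 0.13 in SVE (SD, n = 4 each; 1.78-fold, limma adjusted p = 1.17e-05). Of 4 platelet markers only Pf4 was expressed well enough to be tested, and it did not differ (5.18 to 6.02 in PE, 5.27 to 6.30 in SVE; limma adjusted p = 0.806). The summed level of the 4 platelet markers was 56.7 to 97.5 in PE, against 57.7 to 97.0 in SVE. Ppbp, Gp9 and Gp1bb were near the floor, with group means of 2.11 to 3.50 in PE and SVE. The sum therefore rests mainly on Pf4 and adds little to its test.

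The collagen and fibronectin receptor subunits were lower or did not pass the test. Itga5, the fibronectin receptor subunit, averaged 8.50 ± 0.0975 in PE and 9.25 ± 0.206 in SVE (SD, n = 4 each; limma adjusted p = 1.06e-05). Itga1, a collagen receptor subunit of smooth muscle and fibroblasts, averaged 8.99 in PE and 9.78 in SVE (limma adjusted p = 7.79e-05). The 4 libraries of each group did not overlap for either gene. Itga2, next to Itga1 on chromosome 13, and the collagen-binding Itga10 and Itga11 showed differences of 0.01, 0.08 and -0.16, none of which passed. Itga8, a nephronectin receptor subunit of smooth muscle, had overlapping libraries and a call (limma adjusted p = 0.0423) that was lost under 8 of the alternatives run. Among αV and its β partners, Itgav (0.12), Itgb5 (0.15) and Itgb8 (-0.14) did not pass. Itgb6 (-0.69, limma adjusted p = 0.0564) did not pass either, although its libraries did not overlap. Itga9, which binds tenascin and other ligands, showed a difference of -0.16 and did not pass.

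Cell type markers give the setting of these differences. All 8 smooth muscle markers were lower in PE (median difference -1.20, summed level 50870 to 70290 in PE and 101800 to 167000 in SVE). Of 5 basal epithelial markers, 3 were lower and 1, Krt15, was higher (summed level 1862 to 2705 in PE and 2560 to 3296 in SVE). All 5 luminal epithelial markers were higher (28940 to 32170 in PE and 16640 to 21940 in SVE), and so were all 5 nerve markers (306.8 to 767.3 in PE and 156.2 to 219.3 in SVE). Of 6 fibroblast markers 2 were lower, and of 6 endothelial markers 2 were lower and 1 was higher. The part of these cell types in the differences of Lama1, Lama2, Itga1, Itga5, Itga7, Itga8 or Itgb4 was not tested.

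The leukocyte integrins varied between libraries more than between groups. Itgal, the αL subunit of lymphocytes, had 4.84, 10.77, 6.74 and 9.80 in the 4 PE libraries, against 6.10, 6.10, 5.76 and 6.01 in SVE. Itgb2, its β partner, had 6.39, 10.52, 7.14 and 9.55 in PE, against 7.02, 7.05, 7.28 and 6.62 in SVE. PE replicates 2 and 4 were high and PE replicate 1 was below all SVE libraries in both genes. Itgam, the αM subunit of myeloid cells, followed the same libraries, with 7.12, 11.32, 7.92 and 10.38 in PE, against 8.43, 8.72, 8.57 and 8.60 in SVE. None of the 3 passed the test (limma adjusted p = 0.069 for Itgal, 0.0892 for Itgb2 and 0.468 for Itgam). Without PE replicate 1, the difference of Itgal was 3.11 (limma adjusted p = 0.003) and that of Itgb2 was 2.08 (0.0109), and both also passed without PE replicate 3. Without PE replicate 2 they were 1.14 and 0.703 (limma adjusted p = 0.279 and 0.354), and without PE replicate 4 they were 1.46 and 1.03 (0.215 and 0.247). The leukocyte markers Ptprc and Lyz2 were high in the same PE libraries, 9.94 and 9.37 for Ptprc and 12.46 and 11.72 for Lyz2 in replicates 2 and 4. The summed level of 7 leukocyte markers was 1770 to 9656 in PE and 1969 to 2634 in SVE. Of these 7, the T cell marker Cd3e (2.69 to 3.4 in PE, 2.09 to 3.31 in SVE) and the B cell marker Cd79a (3.59 to 4.21 in PE, 3.84 to 4.91 in SVE) were too low to be tested. Of the 5 tested, 1 was called higher in PE, beside 31.8% of all genes.

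Itgax and Itgb7 did not share that pattern. Itgax, the αX subunit of dendritic cells and macrophages, lies beside Itgam on chromosome 7 and had 5.50, 5.24, 5.50 and 5.40 in PE, against 6.13, 6.95, 6.74 and 6.69 in SVE. It was lower in every PE library, including those in which Itgam was high (2.33-fold lower, limma adjusted p = 3.71e-06). Itgb7, the partner of α4 and αE, had 5.07, 5.48, 5.07 and 5.58 in PE, against 6.72, 6.28, 6.72 and 6.34 in SVE. These groups did not overlap (2.32-fold lower, limma adjusted p = 6.51e-06). Itgae, the receptor subunit for E-cadherin, averaged 6.11 in PE and 6.69 in SVE (limma adjusted p = 0.0137). This call was lost without SVE replicate 3, without PE replicate 3 and in a fit on PE and SVE alone. Itga4 averaged 7.50 ± 1.02 in PE and 7.15 ± 0.28 in SVE (SD, n = 4 each) and did not pass.

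**Figure D5:**
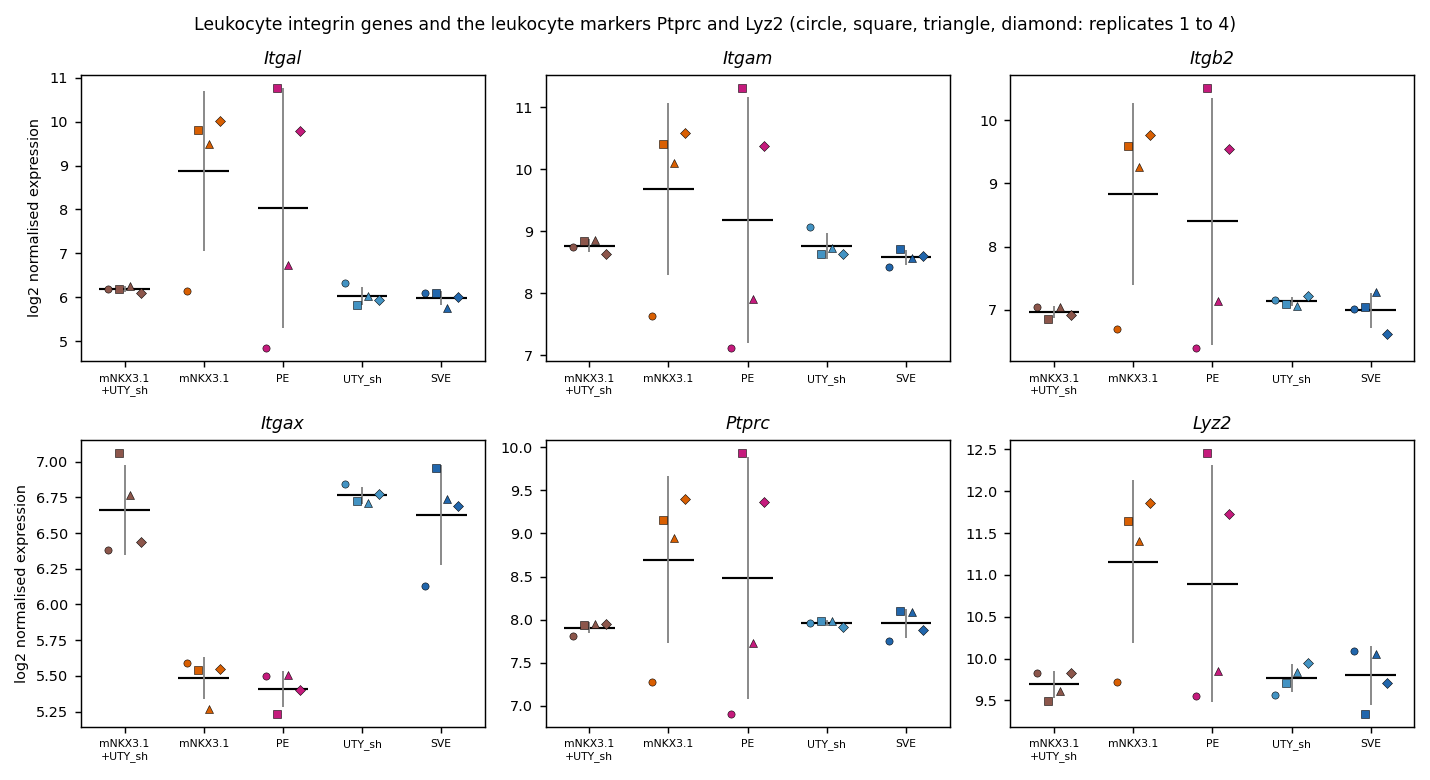
Log2 normalised expression of the integrin genes Itgal, Itgam, Itgb2 and Itgax and of the leukocyte markers Ptprc and Lyz2 in each library, by group, with the group mean (line) and SD (bar, n = 4). PE replicates 2 and 4 and mNKX3.1 replicates 2 to 4 are high in all panels but that of Itgax, where every PE and mNKX3.1 library is below every other library.

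Other genes of the pathway are given by the lists they belong to, and each count can be read beside the 31.8% of all genes that were higher and the 30.4% that were lower in PE. Of 20 other basement membrane genes 16 were lower in PE and 1 higher, with a median difference of -0.50, against 0.02 over all genes. Smoc2, Col15a1 and Col18a1 fell by 1.14, 1.34 and 0.83 on the log2 scale (limma adjusted p = 5.89e-07, 1.38e-06 and 5.45e-06). The exception, named after its value was seen, was Col4a6, a chain of type IV collagen, with 13.67, 13.59, 13.09 and 13.50 in PE, against 11.74, 7.62, 6.36 and 5.60 in SVE (difference 5.63 ± 1.17 SE, limma adjusted p = 4e-04). Col4a5, its partner chain, fell (-0.55, limma adjusted p = 0.00565).

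Of 10 tested laminin receptors other than integrins, 7 were lower and 1 was higher. Dmd (dystrophin, -0.92) and Bcam (a receptor for Lama5, -0.92) fell, and Sdc4, a syndecan, rose by 1.51 (limma adjusted p = 2.57e-07, 1.19e-06 and 1.52e-06). Among 4 hemidesmosome partners of α6β4, Dst, which encodes the plaque protein BPAG1e among other forms, rose by 0.62 and Plec, plectin, fell by 0.30 (limma adjusted p = 6.89e-07 and 0.00288), while Col17a1 (-0.39) and Cd151 (-0.05) did not pass. Of 20 tested genes of integrin activation and adhesion, 12 were lower and 3 higher, with a median difference of -0.31. Src, the kinase of focal adhesions, was at 9.17 to 9.45 in PE, against 10.43 to 10.70 in SVE (-1.29, limma adjusted p = 1.52e-11), and Vcl (-0.71) and Fermt2 (-0.45) fell with it.

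Of 16 tested ligands of other integrins 6 were lower and 2 higher (8 of 16 in either direction, against 62.1% of all genes), among them Cdh1, the ligand of αE, which rose by 0.71, and Mfge8 (-0.85) and Col1a1 (-0.68), which fell (limma adjusted p = 5.18e-08, 6.25e-05 and 0.000776). Of 7 tested proteases that cut laminins or their neighbours, 3 were higher and 2 lower, too few to read against the share of all genes. St14 (matriptase) rose by 0.75, and Mmp14 and Mmp2 fell by 0.55 and 0.90 (limma adjusted p = 1.9e-08, 3.73e-05 and 5.55e-05). Mmp7 (matrilysin), named after its value was seen, had 12.67, 12.99, 12.15 and 12.88 in PE, against 10.40, 6.40, 5.06 and 3.12 in SVE (difference 6.43 ± 1.33 SE, limma adjusted p = 0.000383).

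Libraries of the SVE, UTY_sh and mNKX3.1+UTY_sh groups held different levels of prostate transcripts, and the members that rose in PE followed these in part. In SVE replicates 1 to 4, Pbsn (probasin, a prostate secretory protein) was at 15.71, 10.94, 6.59 and 6.43, beside Lama3 at 9.92, 8.25, 8.13 and 8.32, so that replicate 1 stood apart and the other 3 showed no such order. In the UTY_sh libraries, Lama3 was 9.43 and 9.17 where Pbsn was 13.81 and 14.81, and 8.45 and 8.14 where Pbsn was 9.69 and 10.02. In the mNKX3.1+UTY_sh libraries, Lama3 was 8.17, 8.25, 8.76 and 9.55 beside Pbsn at 5.29, 7.27, 12.56 and 15.06. Col4a6 and Mmp7 were highest in the library of each of these groups with the most Pbsn, for example 11.13 and 9.68 in mNKX3.1+UTY_sh replicate 4. Itga6 followed in part, at 9.07 in SVE replicate 1 and 8.72 in mNKX3.1+UTY_sh replicate 4, against 8.14 to 8.60 in the remaining libraries of these 3 groups. Lama5 was 11.001 in SVE replicate 1 and 11.05 in mNKX3.1+UTY_sh replicate 4, the highest of their groups, but it was also 10.90 in SVE replicate 3, where Pbsn was 6.59, and 10.55 in UTY_sh replicate 3, where Pbsn was 14.81. Without the library highest in Pbsn of each of these 3 groups, the PE against SVE difference was 3.42 for Lama3 and 2.18 for Itga6. These are the values without SVE replicate 1 alone, since only that library of the 3 enters this difference.

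The libraries labelled mNKX3.1 gave values close to those of PE, against the same SVE libraries. By limma, 24 of the 36 members differed from SVE, 5 higher and 19 lower, beside 62.3% of all genes called, 31.7% higher and 30.6% lower. Lama3 had 11.57, 11.52, 11.73 and 11.53 in mNKX3.1 (difference 2.93 ± 0.357 SE, limma adjusted p = 1.25e-06). Itga6 had 10.62, 10.28, 10.43 and 10.26 (1.95 ± 0.183 SE, limma adjusted p = 4.71e-08), and Lama5 rose by 0.92. Itga2b was lowest of the 36 in difference (-2.12), followed by Lamc3 (-1.47), Lama1 (-1.34), Itgax (-1.14), Itgb7 (-1.03), Itgb4 (-1.01), Itga7 (-0.96) and Itga3 (-0.92). Itgal (2.88, limma adjusted p = 0.0135) and Itgb2 (1.84, limma adjusted p = 0.0293) were called in addition; they had 6.15, 9.81, 9.49 and 10.02 and 6.71, 9.60, 9.26 and 9.77 in mNKX3.1, with replicate 1 apart from the other 3. The Itgb2 call was lost without SVE replicate 4 or without any one of mNKX3.1 replicates 2, 3 and 4 (limma adjusted p up to 0.0915). It was also lost when the libraries highest in Pbsn of SVE, UTY_sh and mNKX3.1+UTY_sh were left out together. Itgb1 (-0.19) and Lamc1 (-0.27) passed here and not in PE; that difference between the comparisons was not tested, and each of these calls was lost under 4 of the alternatives run (adjusted p up to 0.0646 for Itgb1 and 0.132 for Lamc1). All 8 smooth muscle markers were lower in mNKX3.1 than in SVE (median difference -1.22), all 5 nerve and all 5 luminal markers were higher, and of 5 basal markers 3 were lower and 1 higher. Their part in the differences of the members was not tested. Between mNKX3.1 and PE directly, limma called 0 of 36 members and 0 of 13456 genes, that is 0% of all. By the same test 0 members and 65 genes (0.483%) had an unadjusted p below 0.05. The same share was 2.35% for UTY_sh against SVE, 4.14% for mNKX3.1+UTY_sh against SVE and 1.61% for mNKX3.1+UTY_sh against UTY_sh. Since the spread of each gene is shared over all 20 libraries, 0.05 is no fixed yardstick for equal groups. Each mNKX3.1 library lay near the mean of a pair of PE libraries, and their independence was not tested. The lack of calls therefore cannot show that the 2 groups are alike.

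The libraries labelled UTY_sh and mNKX3.1+UTY_sh gave no call among the members against SVE, with 0% of all genes called in either comparison. At an unadjusted p below 0.05, limma listed 3 members in UTY_sh (among 316 genes, 2.35% of all) and 1 in mNKX3.1+UTY_sh (among 557 genes, 4.14% of all). Itga2, a collagen receptor subunit, was the member listed in both, at 4.87 to 5.30 in mNKX3.1+UTY_sh, 4.85 to 5.66 in UTY_sh and 4.21 to 4.81 in SVE. Its differences were 0.59 and 0.72 from the same 4 SVE libraries. Every Itga2 value in SVE, PE and mNKX3.1 was below 5. Itga2 therefore passed the filter on low values only through the mNKX3.1+UTY_sh and UTY_sh libraries, and its listing is no support for a difference. The other members listed were Itga5 (0.28) and Itgb8 (-0.34) in UTY_sh. For the median member the 95% interval of such a difference reached 0.315 log2 units to either side. Between mNKX3.1+UTY_sh and UTY_sh, 0 members were called and 0 had an unadjusted p below 0.05, beside 0 called genes (0%) and 217 genes (1.61%) at that level. No member was called in these 3 comparisons without UTY_sh replicate 3 or without mNKX3.1+UTY_sh replicate 4 either.

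Between mNKX3.1+UTY_sh and mNKX3.1 most members differed. By limma, 28 of the 36 members differed, 21 higher and 7 lower in mNKX3.1+UTY_sh, beside 63.8% of all genes called, 31.4% higher and 32.4% lower. The 21 include Itga2, which passed the filter on low values only through the mNKX3.1+UTY_sh and UTY_sh libraries. Itga2b had 7.98, 7.96, 8.09 and 7.70 in mNKX3.1+UTY_sh, against 5.55, 5.72, 5.75 and 5.18 in mNKX3.1, and the groups did not overlap (difference 2.39 ± 0.14 SE, limma adjusted p = 8.39e-11). Lama1 (1.48), Lamc3 (1.43), Itgax (1.18), Itga3 (1.13), Itgb4 (1.11), Itga7 (1.08) and Itgb7 (1.04) were also higher. Lama3 had 8.17, 8.25, 8.76 and 9.55 in mNKX3.1+UTY_sh, against 11.57, 11.52, 11.73 and 11.53 in mNKX3.1 (difference -2.90 ± 0.357 SE, limma adjusted p = 1.36e-06). The other 6 that fell were Itgal (-2.68), Itga6 (-1.97), Itgb2 (-1.87), Lama5 (-0.84), Itgb8 (-0.36) and Itgav (-0.20). The Itgal and Itgb2 calls were lost without mNKX3.1 replicate 2 or replicate 4. That of Itgb2 was also lost without mNKX3.1 replicate 3 or mNKX3.1+UTY_sh replicate 2. Leaving out the libraries highest in Pbsn of SVE, UTY_sh and mNKX3.1+UTY_sh together also lost the Itgb2 call. The Itgb8 call was lost under 8 of the alternatives run. Without mNKX3.1+UTY_sh replicate 4, 20 members were higher and 7 lower. The comparison rests on the mNKX3.1 libraries, whose independence of the PE libraries was not tested. In the same comparison all 8 smooth muscle markers were higher in mNKX3.1+UTY_sh (summed level 124400 to 159600, against 52520 to 62100 in mNKX3.1). All 5 nerve markers were lower (172.6 to 193.3 in mNKX3.1+UTY_sh and 485.5 to 764.4 in mNKX3.1), 3 of 5 luminal markers were lower, and of 5 basal markers 3 were higher and 1 lower. The part of these cell types in the 28 differences was not tested.

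The difference made by the hairpin label with the construct, minus that without it, was tested as an interaction. By limma, 17 of the 36 members passed, 14 with a positive and 3 with a negative value, beside 48.1% of all genes called, 24% in each direction. Itga2b had the largest positive value (2.30, limma adjusted p = 4.42e-08), followed by Lamc3 (1.31) and Lama1 (1.30). Lama3 (-3.05, limma adjusted p = 8.35e-05), Itga6 (-1.98, limma adjusted p = 6.94e-06) and Lama5 (-0.88, limma adjusted p = 0.00196) were the 3 negative ones. The smallest positive call, Lamb3 (0.54, limma adjusted p = 0.0457), was lost under 14 of the alternatives run, with adjusted p from 0.053 to 0.105. Without UTY_sh replicate 3, 13 were positive and 3 negative, and without mNKX3.1+UTY_sh replicate 4, 14 and 3. The interaction also rests on the mNKX3.1 libraries, whose independence of the PE libraries was not tested. All 8 smooth muscle markers passed with a positive and all 5 nerve markers with a negative value in the same test, and their part in it was not tested. Since Uty overlapped between UTY_sh and SVE but not between mNKX3.1+UTY_sh and mNKX3.1, this value compares libraries by label.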

How the data were processed

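Poly-A RNA of 20 tissue recombinants was sequenced on an Illumina instrument from TruSeq libraries, per the labels' protocols. Named in the submitters' processing notes are the tools TopHat2 2.0.4, Cufflinks 2.0.2, bcl2fastq 1.8.4 and DESeq, and the build mm9. What each tool did, which counter and annotation were used and how rat reads were treated is not given in the sources used here. For each gene and library the authors deposited 1 log2 value (0.0193 to 22.42). Values from 11 to 13 were whole multiples of a unit per library (100% within 0.1), which gave the depths, while low values approach a floor (median 2.27 over 5801 genes), so folds of low genes are understated. Between 8 and 10.5, 16.7 to 22.0% were whole, so reads were not recovered and no count test was run.

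Values were fitted with limma 3.58.1 (R 4.3.3), with 1 mean per group, 1 spread per gene shared over all 20 libraries and a variance trend. The fit took 13456 genes with a value of at least 5 in at least 4 libraries, and p-values were adjusted over these within each comparison. Every member may be named, and full values go to at most 8 called members per direction and to their partner chains. From each list at most 3 called genes are named by this rule. Col4a6 and Mmp7, and Col4a5 as the partner chain of Col4a6, are named in addition. Members and lists were chosen with earlier results of these data known. Levels per kilobase use merged exons of GENCODE vM21, and promoters come from RefSeq. Of the tested members, 11 share exon bases with another annotated gene (at most 8.04% with a gene in the table, and 68.7% of Itgam with a readthrough model that is not in it). One tested member counts in the totals, but its own values are not reported here.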

Additional observations from a re-analysis of the deposited data

Results flagged for a closer look

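Among 180 sets of 4 libraries, 1 set per tested member and group, 11 had a library far from the other 3 on the log2 scale, where chance gives about 1 in 20. In SVE replicate 1, Lama3 (9.92, next 8.32) and Itga6 (9.07, next 8.26) were high, and in SVE replicate 3 Lama4 was high (9.83, next 9.34). In UTY_sh replicate 3, Itga2b (7.51) and Lamb3 (7.87) were low. In mNKX3.1+UTY_sh replicate 4, Lama2 was low (9.55). In mNKX3.1 replicate 1, Itgal (6.15), Itgam (7.63), Itgb2 (6.71) and Itga9 (7.32) were low, and in mNKX3.1 replicate 3 Itgax was low (5.27). SVE replicate 1, UTY_sh replicate 3 and mNKX3.1+UTY_sh replicate 4 were also the libraries of their groups with the highest Pbsn.

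The effect of the hairpin label differed with and without the construct for 17 members, by the interaction term of limma. Its log2 values were 2.30 for Itga2b, 1.31 for Lamc3, 1.30 for Lama1, 1.17 for Itgb7, 1.09 for Itgb4, 1.04 for Itgax, 1.03 for Itga3, 0.87 for Itgb3, 0.87 for Itga7, 0.78 for Itga1, 0.74 for Lamb1, 0.71 for Lama2, 0.66 for Itga5 and 0.54 for Lamb3, whose call was lost under 14 of the alternatives run. They were -0.88 for Lama5, -1.98 for Itga6 and -3.05 for Lama3.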

How the results depend on the processing

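No result changed direction with its call under any alternative run, and 3851 of 4000 member values kept their side of the threshold. Of these, 39, called in neither setting, had the other sign, and the rest also kept their direction. The 106 lost calls were mostly of small differences (Lamb2, Itga8, Itgae, Itgb1, Itgb8, Lamb3). Over the fits that left out 1 library each, members called higher in PE than SVE numbered 3 to 5, and members called lower 13 to 19. Itgal and Itgb2 were added to the higher ones without PE replicate 1, PE replicate 3 or mNKX3.1 replicate 1. Itgb5 was added without SVE replicate 1 or SVE replicate 3, and Itgav without PE replicate 2. Members called lower in mNKX3.1+UTY_sh than mNKX3.1 numbered 4 to 7 and those with a negative interaction 3 to 5, and 5 in the fit on the compared groups alone. The cause of these shifts was not tested. Scaling to a common median or by quantiles moved the median of all genes by under 0.1 log2 units in each comparison. All 72 values of chain shares and chain differences without 1 PE or SVE library, an alternative chosen after seeing the data, moved by less than 1 SD. The alternative of another pseudocount does not apply to values deposited as log2, and the count tests were not run because reads were not recovered. No paired analysis was possible because the labels give no replicate numbers that pair libraries across groups. With 4 libraries a group, the 95% interval of the median member reached 0.315 log2 units to either side of its difference.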
